A study of Mus musculus with 60 samples.

Results

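The genes described here are the replication-dependent core histone genes of the mouse, which encode the H2A, H2B, H3 and H4 proteins that package newly made DNA. They were chosen by symbol: every gene named Hist1h, Hist2h, Hist3h or Hist4h followed by 2a, 2b, 3 or 4 was taken, without pseudogenes, without the germline genes Hist1h2aa, Hist1h2ba and Hist3h2ba, and with at least 100 counts summed over all libraries. Of 64 genes that matched the symbols, 3 were left out by name and 3 as pseudogenes, which left 58 of the 55487 genes counted. The 58 genes comprised 17 H2A, 16 H2B, 12 H3 and 13 H4 genes. In mouse genome build GRCm38 they lay in the Hist1 cluster of chromosome 13 (24 genes between 23531050 and 23762386 and 22 between 21715763 and 22043676), the Hist2 cluster of chromosome 3 (10 genes), and as single genes Hist3h2a on chromosome 11 and Hist4h4 on chromosome 6. The annotation gave all of them a single exon apart from Hist1h2bc, Hist1h2be, Hist1h2bp, Hist1h2bq and Hist1h2br.

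Core histones form the nucleosome, in which 2 copies each of H2A, H2B, H3 and H4 wrap the DNA. The replication-dependent genes are transcribed mainly in S phase at the histone locus body, where the coactivator NPAT acts. Their mRNAs carry no poly(A) tail and end in a conserved stem-loop that is bound by the stem-loop binding protein SLBP.

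The cells were E14JU mouse embryonic stem cells grown in serum and LIF, a cytokine that keeps them self-renewing. All of them carried POLE4, a histone-binding subunit of the leading-strand DNA polymerase epsilon, fused to a dTAG degron, so that the controls carried the tag too. They came from 1 POLE4-dTAG clone and from 1 POLE4-dTAG clone that also carried MCM2-2A, a mutant of the MCM2 subunit of the replicative helicase that cannot bind histones. Each clone received DMSO (Ctrl and Ctrl MCM2-2A) or 1 µM dTAG, which triggers degradation of POLE4 (dPOLE4 and dPOLE4 MCM2-2A). RNA was taken after 24 h (T0), after a further 12, 24 or 60 h of retinoic acid (RA) without LIF (T12, T24, T60), and, in a separate experiment without RA, after 96 h of DMSO or dTAG. There were thus 20 groups of 3 libraries, 60 in all. The labels and the paper's methods do not say whether dTAG or DMSO stayed in the medium during RA. Whether POLE4 stayed depleted at T12, T24 and T60 is therefore not known here. With 1 clone of each genotype, the MCM2-2A mutation and other differences between the clones cannot be told apart, and p-values measured the spread between the libraries of a clone.

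Libraries were made from rRNA-depleted total RNA, which keeps mRNAs that have no poly(A) tail. Library totals ran from 10461077 to 46609151 counts (median 19752600) in the 48 libraries of the RA experiment and from 7126100 to 23598266 in the 12 libraries of the 96 h experiment. The 7 embryonic stem cell markers (Pou5f1, Nanog and others) summed to 3434 CPM (read counts of a gene relative to the scaled total of its library) ± 60.5 (SD, n = 3) in Ctrl at T0 and to 4026 ± 237 in Ctrl MCM2-2A, and to 297 ± 44.1 and 677 ± 90.6 at T60. The 5 neural markers (Sox1, Pax6 and others) summed to 224 CPM ± 4.24 at T0 and 318 ± 12.95 at T60 in Ctrl. Of these 5, 3 were called higher at T60 in Ctrl and 1 lower (log2 fold change -2.95), and Sox1 was not called. In dPOLE4 MCM2-2A the neural markers summed to 181 CPM ± 16.5 at T0 and 184 ± 8.30 at T60. In bulk RNA, fewer cells that express a gene and less RNA per cell cannot be told apart.

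Of the 58 genes, 39 had a transcript that contained the stem-loop, searched as a stem of 6 base pairs with GG at its foot around a loop of 4 bases. These were 11 H2A, 9 H2B, 8 H3 and 11 H4 genes, and 6 different cores occurred. Within the last 150 bases of a transcript, 22 of the 58 genes held one, beside 37 of all 21901 protein-coding genes (0.169%). In the other 17 with a stem-loop the annotated transcript ran further past it. Among genes without a match, several had short annotated transcripts, such as Hist1h4k (312 bases), Hist2h2bb (381) and Hist1h2ak (393). Others had long ones, such as Hist2h2be (2620). The 3′ end of the short ones may lie outside the sequence searched, so a missing match does not show that a gene lacks the element. The stem-loops of a gene from each family, and of Hist4h4, are shown 5′ to 3′ from the GENCODE transcripts on GRCm38 with the 16-base core in capitals, because these mRNAs are known by this element; of those shown, that of Hist1h2bm lay within the last 150 bases.
Hist1h2ae: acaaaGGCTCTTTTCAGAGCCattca
Hist1h2bm: acaaaGGCTCTTTTCAGAGCCactaa
Hist1h3f: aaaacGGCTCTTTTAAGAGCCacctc
Hist1h4d: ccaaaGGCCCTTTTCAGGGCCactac
Hist4h4: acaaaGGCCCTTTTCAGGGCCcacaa
The core of Hist1h2ae and Hist1h2bm was the most common and occurred in 22 genes, that of Hist1h4d and Hist4h4 in 7, and that of Hist1h3f in 5.

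RefSeq promoters (GRCm38.p6, 250 bases before the start to 50 after, 300 in all) were matched for 53 of the 58 genes and searched on both strands for the pentamer CCAAT, for the pentamer TATAA found in TATA boxes, and for the octamer ATTTGCAT. CCAAT was found in 44 (83.0%, against 37.4% of all 32851 promoters) and TATAA in 41 (77.4% against 24.9%). CCAAT was present in all 17 H2A, all 14 H2B and all 10 matched H3 promoters, and in 3 of 12 H4 promoters. The octamer was found in 11 (20.8% against 1.7%), of which 6 were H2A, 5 H2B, 0 H3 and 0 H4 promoters. The 150 bases before the start of the 4 genes called at T60 after POLE4 depletion in MCM2-2A cells, all H2A or H2B, and of 2 abundant H4 genes, are shown on the strand of the gene, with these 3 motifs, on either strand, in capitals.
Hist1h2ae (chr13:23571221-23571370, minus strand): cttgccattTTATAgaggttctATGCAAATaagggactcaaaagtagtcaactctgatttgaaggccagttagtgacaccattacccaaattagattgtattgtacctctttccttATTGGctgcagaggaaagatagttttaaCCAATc
Hist3h2a (chr11:58954535-58954684, plus strand): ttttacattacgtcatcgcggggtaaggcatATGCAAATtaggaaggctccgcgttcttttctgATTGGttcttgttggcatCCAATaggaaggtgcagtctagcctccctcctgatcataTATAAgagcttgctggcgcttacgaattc
Hist1h2bh (chr13:23543445-23543594, minus strand): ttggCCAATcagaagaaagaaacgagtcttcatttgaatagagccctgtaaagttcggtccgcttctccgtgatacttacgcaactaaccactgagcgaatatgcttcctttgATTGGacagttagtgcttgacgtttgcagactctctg
Hist1h2bm (chr13:21721894-21722043, plus strand): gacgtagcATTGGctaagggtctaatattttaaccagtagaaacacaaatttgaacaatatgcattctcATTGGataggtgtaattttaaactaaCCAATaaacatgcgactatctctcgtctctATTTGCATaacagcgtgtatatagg
Hist1h4d (chr13:23581418-23581567, plus strand): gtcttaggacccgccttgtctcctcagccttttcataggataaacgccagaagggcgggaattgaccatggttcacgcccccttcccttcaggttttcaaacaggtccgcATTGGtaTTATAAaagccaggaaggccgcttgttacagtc
Hist1h4k (chr13:21750554-21750703, minus strand): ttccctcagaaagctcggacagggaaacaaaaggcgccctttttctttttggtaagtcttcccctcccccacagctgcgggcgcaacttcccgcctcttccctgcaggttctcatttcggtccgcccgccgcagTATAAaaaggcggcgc
The H2A and H2B genes and Hist1h4d held CCAAT in these stretches, on one strand or the other, and Hist1h4k held only TATAA. A match describes the letters and was not tested as a binding site. In addition, 11 pairs of genes lay head to head with their starts 176 to 302 bases apart, and each pair joined an H2A with an H2B gene.

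The first question was how much of the RNA these genes took up. Summed over the 58 genes, they made up between 3921 CPM (dPOLE4 MCM2-2A at T60, replicate 3) and 8687 CPM (Ctrl at T60, replicate 1), with a median of 6527 over the 60 libraries. H4 genes took 36.7% of this sum on average, H2B genes 26.3%, H3 genes 23.3% and H2A genes 13.7%. Scaled by exon length, the median gene stood at 324 CPM per kb in H4, 201 in H3, 104 in H2B and 74.9 in H2A. The spread within a family was wider than that between families: H2B ran from 0.31 CPM per kb for Hist2h2be to 769 for Hist2h2bb, and H4 from 44.1 for Hist1h4m to 790 for Hist1h4k. Exon lengths were those of the annotation, such as 312 bases for Hist1h4k and 2620 for Hist2h2be. Some annotated transcripts ran far past the stem-loop, so values per kb depend in part on the annotated length. The 3 most abundant genes of a family carried 37.7% (H2B) to 50.4% (H3) of its CPM. Many of these genes are near copies: a median of 45.7% of a gene's 100-base windows occurred in another gene, 5 genes (Hist2h2aa1, Hist2h2aa2, Hist2h2bb, Hist2h3b and Hist2h3c1) had no window of their own, and 7 shared less than 10%, so values of single genes with high shares are uncertain.

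**Figure D1:**
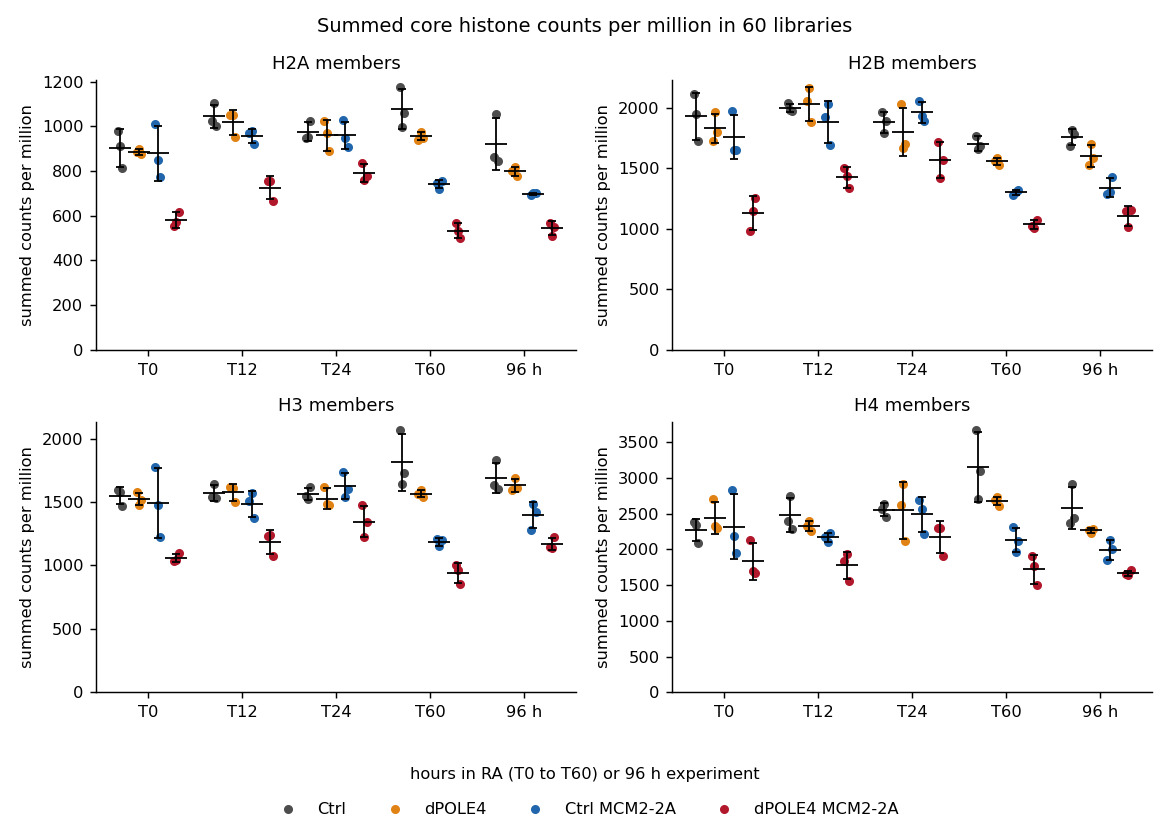
Summed CPM of the H2A, H2B, H3 and H4 genes in each of the 60 libraries, by group, with points for libraries, long bars for the mean and whiskers for the SD (n = 3). The dPOLE4 MCM2-2A libraries sit below the Ctrl MCM2-2A libraries at T0 for H2A, H2B and H3, whereas the H4 libraries overlap.

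The main comparison asked what depletion of POLE4 did to these genes in cells that also carried MCM2-2A. At T0, after 24 h of dTAG, the 58 genes summed to 4703, 4462 and 4643 CPM in dPOLE4 MCM2-2A against 7588, 6167 and 5597 CPM in Ctrl MCM2-2A. Every depleted library lay below every control library. Of the 58 genes, 57 had a log2 fold change below 0, with a median of -0.52, beside a median of 0.01 over all 18171 features tested. In 43 of 58 genes the groups did not overlap and the depleted cells were lower, against 10.3% of all features. At an adjusted p of 0.05, 14 genes were lower (0.314% of all features). By edgeR 1, Hist1h2bm, passed the thresholds of the study (adjusted p of 0.01 and a log2 fold change of 0.58 in either direction). Of all features, 0.0495% were called lower. The study used these thresholds with DESeq2, which called more of the 58 genes here, as given in the section on processing. With the replicate number as a block, which the pairing of these libraries allowed, 20 of the 58 genes were called lower (0.787% of all features were called in either direction in this fit). The summed stem cell markers also lay below their controls, at 3724, 3825 and 3706 CPM against 4299, 3866 and 3913 CPM, and their part in these values was not tested.

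By family medians the H2A and H2B genes were lower by more than the H3 and H4 genes at this time. Per library, however, the log2 ratio of summed H3 and H4 to summed H2A and H2B CPM overlapped. It ran from 0.56 to 1.05 in dPOLE4 MCM2-2A and from 0.38 to 0.63 in Ctrl MCM2-2A. The genes of a library are not replicates. The median log2 fold change was -0.65 for H2B, -0.54 for H2A, -0.50 for H3 and -0.36 for H4. All 33 H2A and H2B genes were below 0, 28 without overlap, and 13 passed an adjusted p of 0.05. Of the 25 H3 and H4 genes, 24 were below 0, 15 without overlap, and 1, Hist4h4, passed. Summed H2B genes stood at 979.5, 1147 and 1258 CPM in dPOLE4 MCM2-2A and 1971, 1651 and 1655 CPM in the control. Summed H4 genes stood at 2134, 1702 and 1668 CPM against 2826, 2186 and 1945 CPM. The H2B sums were far apart, while 1 depleted library exceeded the lowest H4 control. The H3.1 genes (4) had a median of -0.55 and the H3.2 genes (8) of -0.46. By cluster, the medians were -0.54 and -0.58 in the distal and proximal parts of Hist1 and -0.39 in Hist2. The 44 genes with CCAAT in the promoter had a median of -0.57 and the 9 without it, all of them H4, of -0.31, so this split cannot be told apart from the family.

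Hist1h2bm, an H2B gene of the Hist1 cluster (chr13:21722044-21722567, plus strand), stood at 26.6, 30.97 and 34.7 CPM in dPOLE4 MCM2-2A and at 61.8, 59.7 and 52.1 CPM in Ctrl MCM2-2A. It fell by 0.89 on the log2 scale (SE 0.105, adjusted p = 0.007). The libraries were far apart, and only 6.59% of its windows occurred in another gene. The call was lost when any of the Ctrl MCM2-2A libraries, or replicate 2 of dPOLE4 MCM2-2A, was left out, with adjusted p between 0.020 and 0.11, and over all 6 libraries left out in turn the log2 fold change lay between -0.998 and -0.782. Hist1h2bh (chr13:23541714-23543392, minus strand) had the lowest value of the H2B genes, with 36.3, 47.4 and 50.9 CPM against 95.9, 78.5 and 81.3 CPM (log2 fold change -0.91, SE 0.121, adjusted p = 0.013). Hist1h2ae, the lowest of the H2A genes (chr13:23570517-23571220, minus strand), stood at 26.1, 32.1 and 43.4 CPM against 68.5, 60.7 and 56.8 CPM (-0.84, SE 0.154, adjusted p = 0.039). Both were without overlap and missed the threshold of 0.01. Its head-to-head neighbour Hist1h2bg, whose start lay 176 bases away, had a log2 fold change of -0.56 (SE 0.122, adjusted p = 0.070). Over the 11 head-to-head pairs the values of the partners differed by a median of 0.06 on the log2 scale and by at most 0.39. H2A and H2B genes that are not neighbours were not compared in this way, so these values do not set the pairs apart.

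Among the most abundant H2A genes, Hist1h2ak stood at 106, 107 and 112 CPM in dPOLE4 MCM2-2A against 203, 162 and 139 CPM in Ctrl MCM2-2A (-0.62, SE 0.113, adjusted p = 0.037). Hist3h2a stood at 48.0, 37.1 and 36.4 CPM against 86.8, 65.7 and 61.8 CPM (-0.81, SE 0.133, adjusted p = 0.026). Neither overlapped its control, and Hist1h2af, at 76.2, 82.0 and 86.6 against 132, 113 and 102 CPM, did not either (-0.49, SE 0.094, adjusted p = 0.043). Among the H2B genes, Hist1h2bk stood at 103, 129.6 and 135 CPM against 216, 182 and 184 CPM (-0.65, SE 0.106, adjusted p = 0.025). Hist1h2bg stood at 82.9, 106 and 122 CPM against 167, 149 and 146 CPM. Hist2h2bb, the most abundant H2B gene, stood at 276, 231 and 225 CPM against 361, 286 and 289 CPM and had a smaller difference (-0.35, SE 0.103, adjusted p = 0.17). All 3 H2B genes were lower without overlap.

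The abundant H3 and H4 genes overlapped more. Hist1h3e stood at 229, 241 and 248.95 CPM in dPOLE4 MCM2-2A against 372, 312 and 248 CPM in Ctrl MCM2-2A (-0.36, SE 0.120, adjusted p = 0.22). Hist1h3f stood at 152, 142 and 149 against 251, 196 and 168 CPM (-0.46, SE 0.118, adjusted p = 0.11). Hist1h3c stood at 117, 146 and 154 against 225, 199.9 and 180.2 CPM (-0.52, SE 0.110, adjusted p = 0.061). The last pair were below their controls without overlap, and replicate 3 of the control was the lowest in all 3 genes. Hist1h4d stood at 280.1, 212 and 266 CPM against 415, 333 and 287 CPM (-0.44, SE 0.131, adjusted p = 0.17). Hist1h4a stood at 277, 242 and 230.0 against 364, 279 and 245 CPM (-0.24, SE 0.126, adjusted p = 0.44). Hist1h4k, the most abundant per kb, stood at 288, 193 and 165 against 329.8, 231 and 185 CPM (-0.20, SE 0.214, adjusted p = 0.75). Hist1h4a and Hist1h4k overlapped their controls, and the first replicate was highest in both groups. The extremes within H3 were Hist2h3b (-0.62, SE 0.147, adjusted p = 0.088) and Hist2h3c2 (-0.18), and within H4 Hist4h4 and Hist1h4m. Hist4h4 stood at 107, 96.5 and 94.6 CPM against 164, 138 and 131 CPM (-0.53, SE 0.089, adjusted p = 0.028), whereas Hist1h4m, the only one of the 58 above 0, had 27.8, 18.5 and 13.2 against 27.6, 17.8 and 12.8 CPM (0.03, SE 0.286, adjusted p = 0.98). The smallest difference among H2A genes was that of Hist2h2ab (-0.26), which overlapped.

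**Figure D2:**
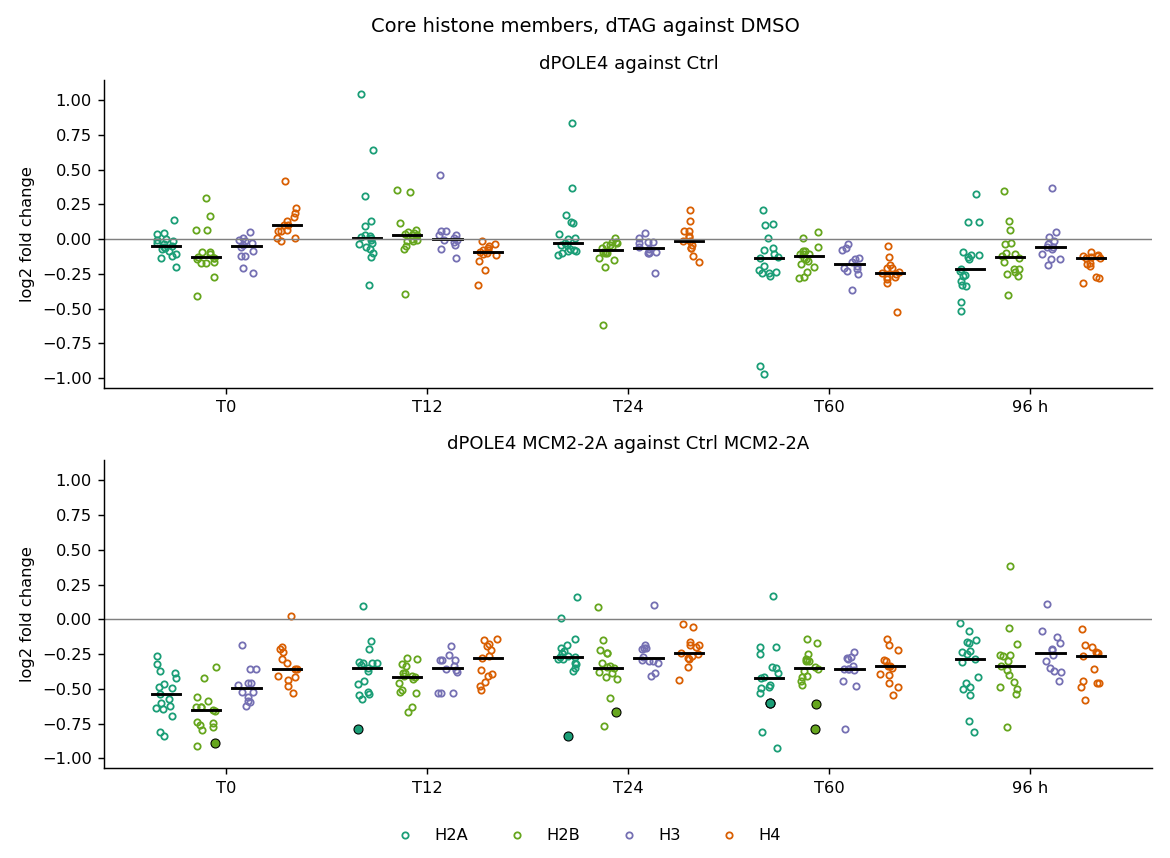
Log2 fold change of each of the 58 genes after POLE4 depletion in POLE4-dTAG cells and in POLE4-dTAG MCM2-2A cells at T0, T12, T24, T60 and 96 h, by family, with bars at the family median and filled points for called genes. In MCM2-2A cells 57 of 58 genes lie below 0 at T0.

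The same direction was measured at the later times in MCM2-2A cells. At T12 the sums were 5331, 5362 and 4634 CPM in dPOLE4 MCM2-2A against 6572, 6681 and 6215 CPM in Ctrl MCM2-2A. At T24 they were 6331, 5703 and 5598 against 7510, 6985 and 6622 CPM, and at T60 4494, 4270 and 3921 against 5539, 5141 and 5401 CPM. In the 96 h experiment they were 4515, 4295 and 4640 against 5113, 5616 and 5551 CPM. At all 4 of these times the depleted libraries lay below the controls without overlap.

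At T12 the median log2 fold change of the 58 genes was -0.37, with 57 below 0, and 39 did not overlap (10.7% of all features). At an adjusted p of 0.05, 33 were lower (1.68% of all features), and 1, Hist3h2a, was called (0.188%). At T24 the median was -0.27, with 54 below 0, 33 without overlap (14.5%), 20 lower at an adjusted p of 0.05 (3.27%) and 2 called, Hist2h2aa1 and Hist1h2bp (0.504%). With the replicate block, which the pairing allowed, 4 were called at T24 (1.56% of all features in either direction). At T60 the median was -0.36, with 57 below 0, 46 without overlap (15.5%), 30 lower at an adjusted p of 0.05 (4.65%) and 4 called, Hist1h2ae, Hist3h2a, Hist1h2bm and Hist1h2bh (1.19%). At 96 h Hist2h2be did not pass the filter on low counts, and 55 of the 57 genes tested were below 0, with a median of -0.28, 36 without overlap (7.83%), 6 lower at an adjusted p of 0.05 (0.356%), and 0 called (0.109%), although 41 had an unadjusted p under 0.05 (11.5% of all features), DESeq2 called 1 (0.664%) and the fit with the replicate block, which the pairing allowed, called 3 (1.76%). The members' shares thus stood above the share of all features at every time, apart from the calls by edgeR without the block at 96 h. The families lay closer together than at T0, without a test of that difference: the medians of H2A, H2B, H3 and H4 were -0.35, -0.41, -0.35 and -0.28 at T12, -0.27, -0.35, -0.28 and -0.24 at T24, -0.42, -0.35, -0.36 and -0.34 at T60, and -0.28, -0.33, -0.24 and -0.26 at 96 h.

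With all libraries and the filter on low counts, the genes called by edgeR without the block at the study's thresholds after POLE4 depletion were, at all times, H2A or H2B genes of the MCM2-2A cells. At T12 Hist3h2a stood at 55.6, 51.7 and 46.1 CPM against 83.1, 87.4 and 93.6 CPM (-0.79, SE 0.075, adjusted p = 0.00032). At T60 it stood at 55.7, 51.4 and 41.9 against 80.5, 68.9 and 77.4 CPM (-0.60, SE 0.105, adjusted p = 0.0053). At 96 h it stood at 33.0, 32.7 and 29.8 against 48.6, 60.4 and 49.8 CPM (-0.73, adjusted p = 0.011), short of the threshold. Its depleted and control libraries were apart at all of these times. At T60 Hist1h2bh stood at 35.7, 34.5 and 39.1 against 63.7, 59.9 and 67.1 CPM (-0.79, SE 0.079, adjusted p = 0.0005). Hist1h2bm stood at 22.0, 24.7 and 22.5 against 34.9, 37.1 and 33.9 CPM (-0.61, SE 0.086, adjusted p = 0.0017). Hist1h2ae stood at 34.3, 30.9 and 33.9 against 50.3, 49.6 and 51.6 CPM (-0.60, SE 0.076, adjusted p = 0.00094). The libraries of these 3 genes were tightly grouped. At T24 Hist1h2bp stood at 25.7, 16.6 and 16.9 against 31.5, 31.3 and 32.4 CPM (-0.66, SE 0.133, adjusted p = 0.0088). Hist2h2aa1 stood at 3.92, 3.103 and 2.84 against 5.38, 6.84 and 5.34 CPM (-0.84, SE 0.171, adjusted p = 0.0095), and all of its windows were shared with another gene. The call of Hist2h2aa1 was lost without any 1 of its 6 libraries, and that of Hist1h2bp without any of 5, the exception being replicate 1 of dPOLE4 MCM2-2A. At T60 that of Hist3h2a was lost without any of 5, the exception being replicate 1 of dPOLE4 MCM2-2A. That of Hist1h2ae was lost without replicate 3 of Ctrl MCM2-2A or replicate 2 of dPOLE4 MCM2-2A, and that of Hist1h2bm without replicate 2 or 3 of Ctrl MCM2-2A or replicate 1 of dPOLE4 MCM2-2A, at fold changes close to the limit.

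Marker genes of other cells also moved at T60. The 5 fibroblast markers (Col1a1, Col1a2 and others) summed to 345 CPM ± 20.9 (SD, n = 3) in Ctrl MCM2-2A and 165 ± 16.8 in dPOLE4 MCM2-2A, and the neural markers to 245 ± 17.7 and 184 ± 8.30. The stem cell markers summed to 677 ± 90.6 and 829 ± 102, and their libraries overlapped. The 5 endoderm markers (Gata4, Sox17 and others) summed to 266 CPM ± 11.1 and 207 ± 14.4, lower after depletion without overlap. At 96 h the endoderm markers summed to 23.1 to 26.9 CPM in Ctrl MCM2-2A and 18.9 to 22.9 in dPOLE4 MCM2-2A, also without overlap. At T0 the fibroblast markers summed to 38.3 CPM ± 6.57 and 38.0 ± 3.54. The 5 markers of 2-cell-like cells, a rare state in stem cell cultures (Zscan4c and others), stood higher. They summed to 212, 196.1 and 255.7 CPM in dPOLE4 MCM2-2A against 183.7, 136.4 and 138.1 CPM in Ctrl MCM2-2A at T60, and to 126.6, 93.8 and 99.6 against 55.2, 33.6 and 45.0 CPM at 96 h. All 5 had a log2 fold change above 0 at both times, with medians of 0.58 and 1.27, and 1 was called at each. The part of these markers in the histone values at T60 and 96 h was not tested.

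**Figure D3:**
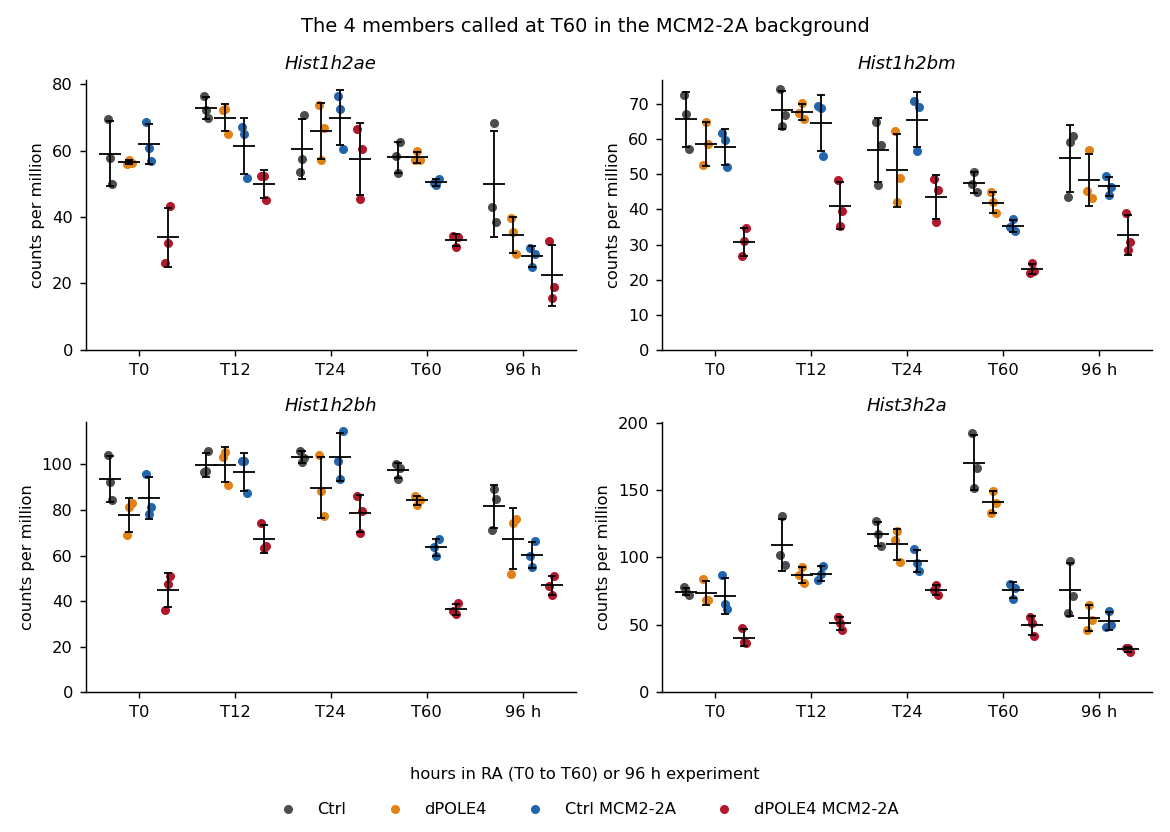
CPM of Hist1h2ae, Hist1h2bm, Hist1h2bh and Hist3h2a, the 4 genes called at T60 in dPOLE4 MCM2-2A, in each library of the 20 groups, with points for libraries, long bars for the mean and whiskers for the SD (n = 3). In the MCM2-2A cells Hist1h2bh and Hist1h2bm lie lower after dTAG than after DMSO at T0 and T60.

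In POLE4-dTAG cells without MCM2-2A, depletion of POLE4 for 24 h left the sums at 6885, 6664 and 6492 CPM against 7072, 6777 and 6102 CPM in Ctrl. The groups overlapped, and the median log2 fold change of the 58 genes was -0.03. Leaving out 1 library moved this median between -0.11 and 0.01 (above 0 without replicate 1 of Ctrl). At T0 2 genes were lower without overlap, against 7.8% of all features, and 0 were called lower (0.0% of all features). At T12 the median was -0.01, with 3 genes lower without overlap (7.06%) and 0 called (0.0%), and at T24 -0.05, with 2 without overlap (6.59%) and 0 called (0.0%). The median was above 0 at T12 without replicate 2 of Ctrl or replicate 3 of dPOLE4, and at T24 without replicate 3 of dPOLE4. By edgeR, 4, 8 and 3 of the 58 genes had an unadjusted p under 0.05 at these times, beside 11.6%, 6.42% and 7.6% of all features, and DESeq2 called 0. The counts without overlap at T0, T12 and T24 were thus at or below the share of all features. The abundant genes overlapped at T0: Hist1h2ak stood at 184, 172 and 175 CPM in dPOLE4 against 184, 180.5 and 164 CPM in Ctrl. Hist2h2bb stood at 361, 328 and 331 against 350.4, 317 and 301 CPM. Hist1h2bk stood at 192, 227 and 202 against 245, 224 and 191 CPM. These genes, which were lower in the MCM2-2A cells, were at similar levels here. Hist1h3e stood at 342, 304 and 319 against 328, 319.8 and 306 CPM. Hist1h4d stood at 405, 353 and 372 against 366, 379 and 372 CPM. The other abundant genes, Hist1h2af, Hist3h2a, Hist1h2bg, Hist1h3f, Hist1h3c, Hist1h4a and Hist1h4k, overlapped too, with adjusted p between 0.43 and 0.99 over all 12. Hist1h2bh stood at 69.2, 81.3 and 83.2 against 104, 92.4 and 84.3 CPM, without overlap and with an adjusted p of 0.36.

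At T60 and at 96 h smaller differences in the same direction were measured in these cells. The sums were 6752, 6884 and 6626 CPM in dPOLE4 against 8687, 6996 and 7574 CPM in Ctrl at T60, and 6195, 6440 and 6259 against 6562, 7611 and 6668 CPM at 96 h. Neither overlapped. At T60 the median log2 fold change was -0.18, with 52 of 58 below 0, 23 without overlap (10.4% of all features) and 0 called lower (0.134%), although 31 had an unadjusted p under 0.05 (14.3% of all features). The median was -0.10 without replicate 1 of Ctrl, the highest library. All 25 H3 and H4 genes were below 0, with medians of -0.18 for H3 and -0.24 for H4, beside -0.13 for H2A and -0.12 for H2B. At 96 h the median was -0.13, with 49 below 0, 10 without overlap (9.56%) and 0 called lower (0.0%), and 15 had an unadjusted p under 0.05 (12.3%). The median was -0.08 without replicate 2 of Ctrl. DESeq2 called 0 at both times. Fibroblast markers summed to 625 CPM ± 110 (SD, n = 3) in Ctrl and 469 ± 5.72 in dPOLE4 at T60, and the 2-cell-like markers to 80.6, 47.3 and 38.9 CPM in dPOLE4 against 46.0, 28.3 and 35.5 CPM in Ctrl at 96 h. The part of either list was not tested.

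The effect of POLE4 depletion was then compared between the cell lines with an interaction term. The median difference, MCM2-2A cells minus POLE4-dTAG cells, was -0.48 on the log2 scale at T0, with 57 of 58 genes below 0, and -0.34 at T12, -0.26 at T24, -0.17 at T60 and -0.16 at 96 h. The medians over all features were close to 0 at every time. By edgeR 43, 37, 23, 20 and 8 genes had an unadjusted p under 0.05 at these times in the same order, beside 5.39%, 7.4%, 8.81%, 10.1% and 3.7% of all features. Single genes rarely passed the threshold: 0 at T0 (0.00526% of all features), 0 at T12 (0.0159%), 0 at T24 (0.0351%), 1 at T60 (0.1%) and 0 at 96 h (0.0%). The gene called at T60 was Hist1h2ae (-0.60, SE 0.098, adjusted p = 0.0086). In POLE4-dTAG cells Hist1h2ae stood at 57.1, 59.8 and 57.1 CPM in dPOLE4 against 58.5, 53.2 and 62.5 CPM in Ctrl at T60, so that these groups overlapped. Hist1h2bh differed by -0.58 (SE 0.091, adjusted p = 0.0081), just under the fold threshold, and stood at 86.0, 82.1 and 84.5 against 100.1, 93.6 and 98.4 CPM in POLE4-dTAG cells. DESeq2 called 1 gene at T0, Hist1h2bf (0.0642% of all features), and 2 at T12, Hist2h2aa2 and Hist1h2bm (0.15%). With the replicate block, 1 was called at T0, Hist3h2a (0.0684%), and 2 at T60, Hist1h2ae and Hist1h2bh (0.237%).

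Whether H3 and H4 moved apart from H2A and H2B was measured as the log2 ratio of their summed CPM in each library. At T0 the ratio was 0.63, 0.55 and 0.38 in Ctrl MCM2-2A and 1.05, 0.67 and 0.56 in dPOLE4 MCM2-2A. The means differed by 0.24 (SE 0.164) and the libraries overlapped, and leaving out 1 library moved the difference between 0.10 and 0.34. In POLE4-dTAG cells at T0 the difference was 0.11 (SE 0.097), also with overlap. Within same-numbered pairs at T0 in MCM2-2A cells, dPOLE4 lay above its control in all 3, by 0.42, 0.12 and 0.18 (mean 0.24, SE 0.092), where an exact paired permutation test on 3 pairs cannot go below a two-sided p of 0.25. The pairs of MCM2-2A cells differed by 0.04, 0.18 and 0.03 at T24 and by 0.04, 0.02 and 0.09 at 96 h, all above 0. In POLE4-dTAG cells, where pairs were allowed at T0, T24 and 96 h, 2, 1 and 2 of 3 pairs lay above 0. Taken without pairs, the pooled ratio overlapped in all 10 comparisons of dPOLE4 with its control and in all 5 of Ctrl MCM2-2A with Ctrl. Of the 40 ratios of 1 of H3 and H4 to 1 of H2A and H2B in the dPOLE4 comparisons, 6 lay above the control without overlap and 0 below. These were H3 over H2A in MCM2-2A cells at T0 (difference 0.11, SE 0.053), T12 (0.08, SE 0.032) and T60 (0.13, SE 0.029) and in POLE4-dTAG cells at T12 (0.04, SE 0.015) and 96 h (0.15, SE 0.046), and H3 over H2B in MCM2-2A cells at T24 (0.05, SE 0.029). In Ctrl MCM2-2A against Ctrl, 2 of 20 lay below without overlap, both at T60, H3 over H2B (-0.21, SE 0.077) and H3 over H2A (-0.07, SE 0.035). The 4 ratios of a comparison share the same sums and are not independent. How many would lie apart by chance was not tested. The pooled ratio also differed along RA. In Ctrl its mean was 0.44 (SD 0.067, n = 3) at T0 and 0.83 (SD 0.126) at T60, when the libraries stood at 0.96, 0.71 and 0.81. T60 lay above T0 without overlap in Ctrl (difference 0.39, SE 0.082), dPOLE4 (0.21, SE 0.089) and Ctrl MCM2-2A (0.18, SE 0.088), and overlapped in dPOLE4 MCM2-2A (-0.01, SE 0.173). In Ctrl MCM2-2A this was nearly a tie, with the lowest T60 library at 0.627 and the highest T0 library at 0.626. In Ctrl the H4 to H2B log2 ratio went from 0.24 to 0.88 and the H2B to H2A log2 ratio from 1.10 to 0.67. The H3 to H2A log2 ratio, however, was 0.79 at T0 and 0.75 at T60. Of the 16 ratios of 1 of H3 and H4 to 1 of H2A and H2B along RA, 6 lay above T0 without overlap and 0 below. These were H4 over H2B in 3 of 4 groups, H3 over H2B in 2 and H4 over H2A in 1, with 0 for H3 over H2A. At 96 h without RA the mean ratios of the 4 groups were between 0.67 and 0.78.

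**Figure D4:**
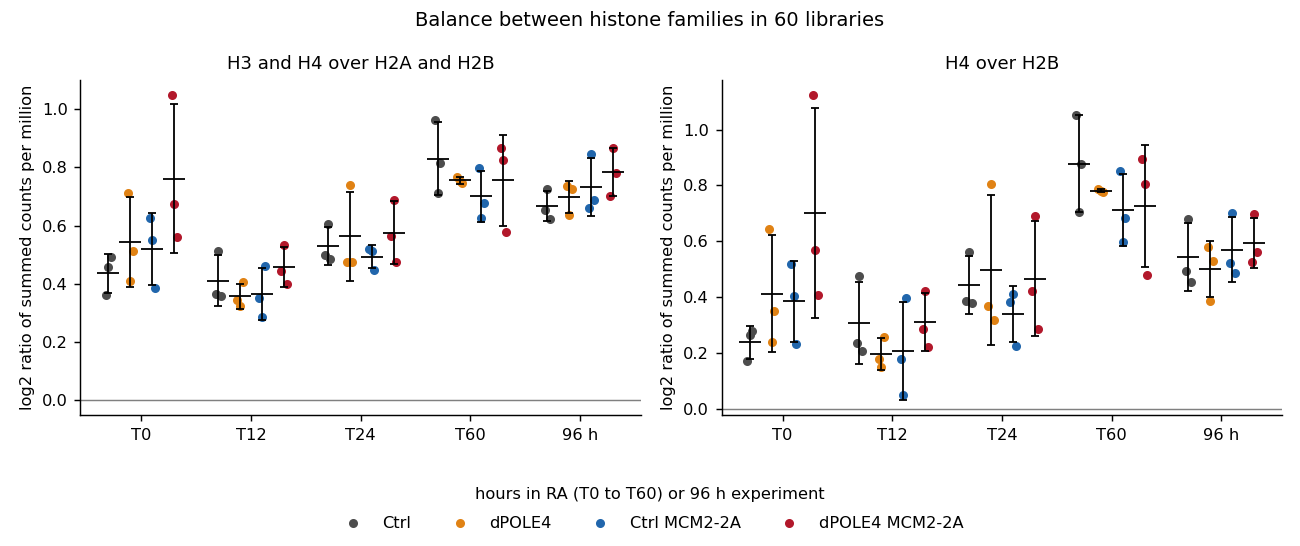
Log2 ratio of summed H3 and H4 CPM to summed H2A and H2B CPM (left) and of H4 to H2B (right) in each library of the 20 groups, with points for libraries, long bars for the mean and whiskers for the SD (n = 3). The left ratio has a mean of 0.44 at T0 and 0.83 at T60 in Ctrl, and overlaps between dPOLE4 and its control at each time.

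The comparison of Ctrl MCM2-2A with Ctrl asked how the lines differed without depletion. At T0, T12 and T24 the medians of the 58 genes were -0.09, -0.10 and 0.05, and 1 gene was called at each time, higher in Ctrl MCM2-2A (18.9%, 14.5% and 17.3% of all features were called in either direction). These medians depended on single libraries: leaving out 1 moved them between -0.20 and 0.05 at T0 (above 0 without replicate 3 of Ctrl MCM2-2A, lowest without its replicate 1), -0.13 and -0.07 at T12, and -0.0046 and 0.07 at T24 (below 0 without replicate 1 of Ctrl MCM2-2A). At T0 the called gene was Hist2h2ab, at 9.52, 10.1 and 7.17 CPM against 5.06, 4.98 and 4.70 CPM (0.82, SE 0.149, adjusted p = 0.00083). It was also called at T12 (0.63, adjusted p = 0.0067), and Hist2h2aa1 at T24, at 5.38, 6.84 and 5.34 against 2.46, 2.83 and 3.29 CPM (1.07, SE 0.163, adjusted p = 4.0e-05). Both are low genes of the Hist2 cluster. At T60 the line with MCM2-2A was lower. The 58 genes summed to 5539, 5141 and 5401 CPM in Ctrl MCM2-2A and 8687, 6996 and 7574 CPM in Ctrl, and 56 of 58 were below 0 with a median of -0.51. In 50 of 58 the groups did not overlap, with MCM2-2A lower, against 25.7% of all features, and 23 fell, against 16.9% called in either direction.

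The genes called lower at T60 were 16 of the 25 H3 and H4 genes and 7 of the 33 H2A and H2B genes, and the medians were -0.66 for H3, -0.60 for H4, -0.42 for H2B and -0.37 for H2A. Without replicate 1 of Ctrl at T60, 14 genes were called in all. The H2A genes Hist1h2ap and Hist3h2a fell by the most. Hist1h2ap stood at 2.03, 3.49 and 3.66 CPM in Ctrl MCM2-2A against 5.98, 20.999 and 5.09 CPM in Ctrl (-1.76, SE 0.415, adjusted p = 0.0031). The high value of replicate 2 of Ctrl carried most of this, since without it the log2 fold change was -0.86 (adjusted p = 0.0097). Hist3h2a stood at 80.5, 68.9 and 77.4 against 192, 152 and 167 CPM (-1.18, SE 0.083, adjusted p = 6.1e-08). Hist3h2a lies on chromosome 11, whose other genes were lower, with a median of -0.55 at T60 and of -0.48 at T0 in this comparison, beside -0.10 to -0.01 on chromosomes 3, 6 and 13; the part of this in its value was not tested. At 96 h the median was -0.33, with 54 genes below 0, 35 without overlap (23.7% of all features) and 5 called lower, Hist1h2ac, Hist1h2ad, Hist1h2ae, Hist1h2bn and Hist1h3d (15.7% called in either direction). Hist1h2ae stood at 30.8, 24.8 and 28.8 against 43.0, 68.4 and 38.6 CPM (-0.82, SE 0.179, adjusted p = 0.0032), and Hist1h2bn at 21.3, 17.9 and 20.5 against 35.8, 35.5 and 30.0 CPM (-0.75, SE 0.116, adjusted p = 0.00027). Leaving out 1 library moved the number called at 96 h between 1 (without replicate 2 of Ctrl) and 8 (without replicate 1 of Ctrl). At T60 the summed fibroblast markers stood at 625 CPM in Ctrl and 345 in Ctrl MCM2-2A and the stem cell markers at 297 and 677. Of the 5 fibroblast markers, 3 were called lower and 1 higher (log2 fold change 1.98). The 2-cell-like markers summed to 255 CPM in Ctrl and 153 in Ctrl MCM2-2A, with 4 of 5 called lower. The endoderm markers summed to 156 and 266, with 1 called lower and 2 higher. The part of these lists was not tested.

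RA differentiation was examined by comparing T60 with T0 in each of the 4 groups. In Ctrl the 58 genes had a median log2 fold change of 0.15 and 8 rose while 1 fell, against 50.6% of all features called in either direction. The median was 0.08 without replicate 3 at T0 and 0.10 without replicate 1 at T60. The H4 genes were all above 0 (13 of 13, median 0.45, 4 called), beside medians of 0.22 for H3, 0.17 for H2A and -0.17 for H2B. In dPOLE4 the median was 0.02 (below 0 without replicate 1 or 3 at T0 or replicate 2 at T60), and 3 rose and 1 fell (48.1% of all features). In Ctrl MCM2-2A it was -0.27, with 49 below 0 and 7 that fell (47.5%), and in dPOLE4 MCM2-2A -0.19, with 46 below 0 and 1 that fell (42.2%), or 2 with the replicate block, which the pairing allowed (44.0%). In each group the share of histone genes called was below that of all features.

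Hist3h2a rose the most in Ctrl, from 77.7, 74.3 and 72.1 CPM at T0 to 192, 152 and 167 CPM at T60 (1.18, SE 0.078, adjusted p = 2.5e-09). In dPOLE4 it rose by 0.92 on the log2 scale (SE 0.074, adjusted p = 4.3e-08), and in the MCM2-2A cells its log2 fold change was 0.09 in Ctrl MCM2-2A and 0.27 in dPOLE4 MCM2-2A. The difference between lines in this change was not tested. The H3.2 gene Hist2h3c2 rose in dPOLE4 from 15.2, 15.2 and 16.1 to 28.9, 29.7 and 29.9 CPM (0.91, SE 0.073, adjusted p = 4.1e-08). Hist1h4m, called in Ctrl, stood at 42.0, 19.0 and 29.6 CPM at T60 against 20.2, 13.8 and 19.5 at T0, with overlap (0.77, SE 0.207, adjusted p = 0.0034). Hist1h2bp was called lower in 3 groups: in Ctrl it stood at 30.6, 18.6 and 19.3 CPM against 40.9, 34.6 and 29.4 with overlap (-0.59, SE 0.160, adjusted p = 0.0035), in dPOLE4 it stood at 19.7, 19.4 and 19.8 against 29.1, 35.7 and 30.9 (-0.72, adjusted p = 3.3e-06), and in Ctrl MCM2-2A at 15.3, 16.4 and 17.5 against 28.8, 27.7 and 30.0 (-0.81, adjusted p = 8.2e-07). The H3 gene Hist1h3g fell in both groups with MCM2-2A. It went from 209.9, 161 and 141 to 96.01, 86.0 and 90.1 CPM in Ctrl MCM2-2A (-0.90, SE 0.114, adjusted p = 1.1e-05) and from 136, 115 and 114 to 80.6, 77.2 and 64.1 CPM in dPOLE4 MCM2-2A (-0.74, SE 0.107, adjusted p = 6.2e-05).

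**Figure D5:**
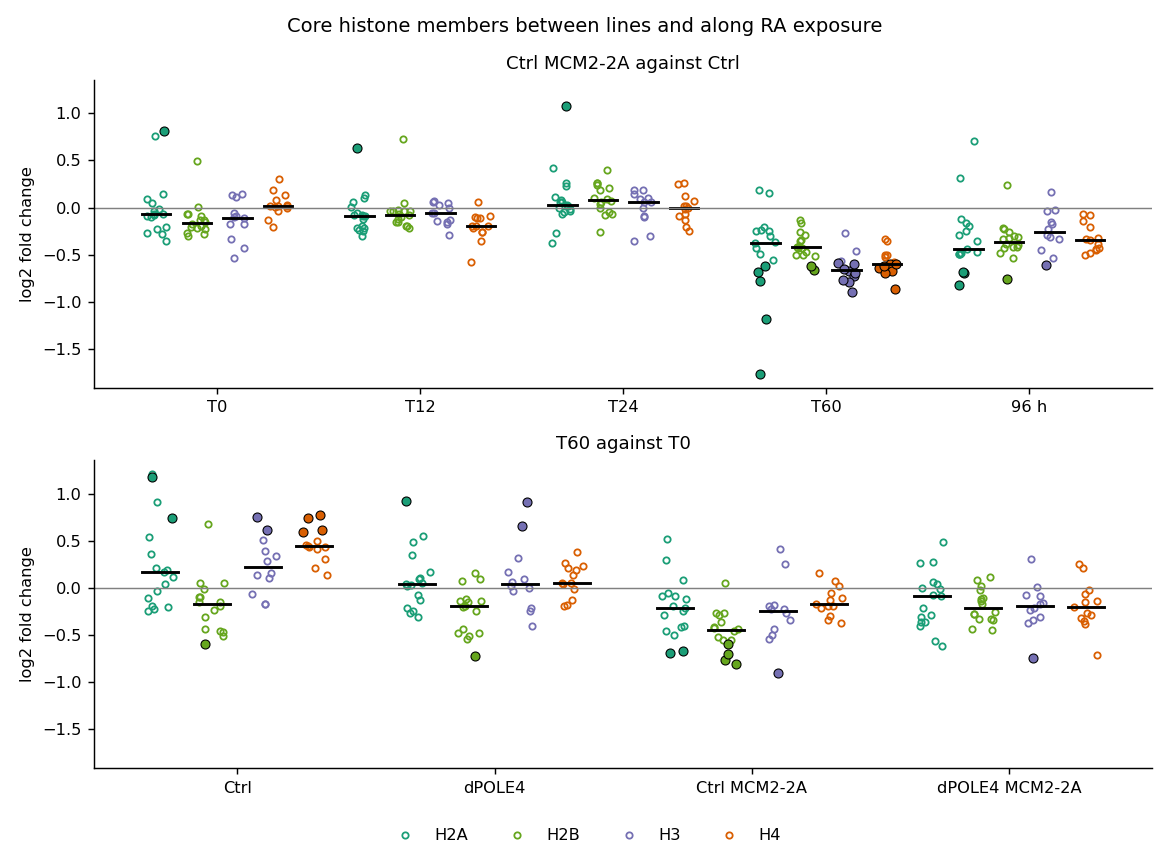
Log2 fold change of each of the 58 genes between Ctrl MCM2-2A and Ctrl at each time and between T60 and T0 of RA in each group, by family, with bars at the family median and filled points for called genes. At T60 the H3 and H4 genes lie below 0 in Ctrl MCM2-2A, with medians of -0.66 and -0.60, and after RA the 13 H4 genes of Ctrl lie above 0.

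Genes that act with the histone genes were read from the same fits. Of 30 genes of histone mRNA biogenesis (the stem-loop binding protein, the U7 particle, NPAT and others), 0 were called in any of the 10 dPOLE4 comparisons, with medians between -0.04 and 0.02. Their summed CPM lay below the control without overlap in MCM2-2A cells at T24 and in POLE4-dTAG cells at 96 h. In the other comparisons it overlapped. In MCM2-2A cells at T0 the log2 fold change of Slbp was 0.07 (adjusted p = 0.71) and that of Npat -0.10 (adjusted p = 0.75). Of 22 genes of the G1/S transition and S phase, 0 were called in the dPOLE4 comparisons, with medians between -0.01 and 0.14. Pcna, the sliding clamp of the replication fork, had 0.07 (adjusted p = 0.80) at T0 in MCM2-2A cells. The summed CPM of these 22 genes lay above the control without overlap in MCM2-2A cells at T24 and T60. It did so in POLE4-dTAG cells at T0 too. At T60 in MCM2-2A cells it was 2227 to 2235 against 2020 to 2057 CPM, with 1 of the 22 genes below 0. Of 8 replication-independent histone genes, 0 were called in the dPOLE4 comparisons, with medians between -0.15 and 0.05. Of the H3.3 genes, H3f3a had -0.11 (adjusted p = 0.71) and H3f3b 0.00 (adjusted p = 0.99) at T0 in MCM2-2A cells. The summed CPM of these 8 genes lay below the control without overlap in MCM2-2A cells at T12, T24 and T60. It was 1584 to 1664 against 1713 to 1832 CPM at T60, and all 8 were below 0 at T12 and at T60. In the other dPOLE4 comparisons of the G1/S and replication-independent lists the sums overlapped. In Ctrl MCM2-2A against Ctrl, where 14.5% to 18.9% of all features were called in either direction, some genes of these lists were called. Lsm11 was called at all 5 times, lower at T60 and 96 h, and Zfp473 at T0, T12 and T24. H3f3b was called lower at all 5 times and H2afv at T60. Uhrf1 was called higher at T0, Rrm2 at T0 and 96 h, and Cdc6 lower at T24. The part of these lists in the core histone values was not tested. Between T0 and T60, of the 22 G1/S and S phase genes 7 fell in Ctrl (median -0.44, against 23.7% of all features called lower), 11 in dPOLE4 (-0.60, 22.5%), 15 in Ctrl MCM2-2A (-0.77, 21.2%) and 12 in dPOLE4 MCM2-2A (-0.61, 19.3%).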

How the data were processed

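RNA was measured in 60 libraries of mouse embryonic stem cells. The values deposited by the authors are raw read counts per gene and per repeat subfamily, in separate tables for the RA and the 96 h experiments. Per the authors' methods and the submitters' processing notes, reads were trimmed with cutadapt 4.2, aligned to mm10 (GRCm38) with STAR with multiple alignments kept, and counted with TEcount; how reads shared by near-identical histone genes were assigned, and the strand setting of the counting, are not given in the sources used here. Libraries were grouped by the labels, and none of the 60 had identical histone counts.

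Counts were tested with edgeR 4.0.16 (limma 3.58.1, R 4.3.3): filterByExpr (minimum count 10, total 15), TMM scaling and the quasi-likelihood test, fitted over all genes and repeats for the 6 libraries of each comparison, with Benjamini-Hochberg adjustment. All adjusted p values are from this test. A gene was called at an adjusted p below 0.01 and a log2 fold change beyond 0.58 in either direction, the limits of the study's methods. The effect of depletion was compared between lines by an interaction term over 12 libraries. CPM values are TMM-scaled. Alternatives were DESeq2 1.42.0, its size factors in edgeR, no filter, an adjusted p of 0.05 with no fold limit, a replicate block and leaving out each library. The fits were tested on simulated data. Same-numbered libraries were taken as paired where the deviations of all 3 pairs correlated above 0.1, as at T0 (0.45, 0.18 and 0.39), T24 and 96 h in the MCM2-2A cells.

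Symbols and positions were taken from GENCODE M21 (GRCm38; 55141 of 55487 IDs matched), and promoters from RefSeq. The genes, lists and tests were chosen with earlier results of these data known. Genes named are the 3 most abundant per family by mean CPM over the 60 libraries and those called after POLE4 depletion. Also named are the 2 called with the largest change in each direction between lines and along RA. The extremes of each family at T0 in the MCM2-2A cells, and H3f3a, H3f3b, Slbp, Npat and Pcna, are named too. Of the other lists, the genes called after POLE4 depletion were markers: Col3a1, Pax6 and Sox1 at T60 in POLE4-dTAG cells, and in MCM2-2A cells Sox1 at T24, Col1a1, Col1a2, Col3a1, Acta2, Pax6, Foxa2, Pou5f1 and Zscan4c at T60, and Usp17lc at 96 h; Pou5f1, Zscan4c and Usp17lc were higher and the rest lower.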

Additional observations from a re-analysis of the deposited data

Results flagged for a closer look

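The effect of POLE4 depletion on Hist1h2ae at T60 differed between the cell lines by an interaction term: the log2 fold change was lower by 0.60 in MCM2-2A cells than in POLE4-dTAG cells (difference -0.60, SE 0.098, adjusted p = 0.0086 by edgeR's quasi-likelihood test with Benjamini-Hochberg adjustment). All 3 dPOLE4 MCM2-2A libraries lay below all 3 Ctrl MCM2-2A libraries, and the libraries of POLE4-dTAG cells overlapped. Of its 100-base windows, 30.7% occurred in another gene.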

How the results depend on the processing

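The median of the 58 genes stayed below 0 in dPOLE4 MCM2-2A against Ctrl MCM2-2A under every alternative run, between -0.60 and -0.42 at T0, -0.41 and -0.30 at T12, -0.32 and -0.22 at T24, -0.41 and -0.34 at T60 and -0.33 and -0.24 at 96 h. Medians near 0 changed sign when 1 library was left out. In POLE4-dTAG cells they lay between -0.1075 and 0.0129 at T0, -0.0391 and 0.0224 at T12 and -0.1151 and 0.0033 at T24, and between the lines between -0.2007 and 0.048 at T0 and -0.0046 and 0.074 at T24. The number of genes called depended on the setting, and apart from the wider threshold the cause was not tested.

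At an adjusted p of 0.05 with no fold limit the numbers in the MCM2-2A cells were 14, 33, 20, 30 and 6 from T0 to 96 h, between the lines 10, 11, 18, 52 and 36, and along RA 35, 31, 32 and 20. Without the filter they were 2, 1 and 2 in POLE4-dTAG cells at T12, T24 and T60, 23, 3, 7 and 3 in MCM2-2A cells at T0, T12, T60 and 96 h, 2 between the lines at T0 and at T12, and 2 along RA in dPOLE4 MCM2-2A. DESeq2 called 21, 3 and 1 in the MCM2-2A cells at T0, T12 and 96 h, and in the interaction 1 at T0 and 2 at T12. The difference of the H3 and H4 ratio between T60 and T0 in Ctrl was 0.51 when taken between median fold changes.

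With the replicate block, 20 genes were called in MCM2-2A cells at T0, 0 at T12, 4 at T24 and 3 at 96 h, 0 between the lines at T12, 2 along RA in dPOLE4 MCM2-2A, and in the interaction 1 at T0 and 2 at T60. At T12, between the lines at T12 and in the interaction at T60 the libraries shared only a number. The other comparisons kept their number of calls within 1.5 times under the block.

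Leaving out 1 library moved the number called between 0 and 3 in MCM2-2A cells at T0 (0 without any control library or dPOLE4 MCM2-2A replicate 2, 2 without its replicate 3 and 3 without its replicate 1), 1 and 9 at T12 (9 without Ctrl MCM2-2A replicate 3, 3 without its replicate 2, 2 without its replicate 1 and 4 without dPOLE4 MCM2-2A replicate 1), 0 and 2 at T24 (0 without Ctrl MCM2-2A replicate 1 or 3 or dPOLE4 MCM2-2A replicate 2, and 1 without Ctrl MCM2-2A replicate 2 or dPOLE4 MCM2-2A replicate 3), 1 and 7 at T60 (7 without dPOLE4 MCM2-2A replicate 1, 2 without replicate 2 of either group and 1 without Ctrl MCM2-2A replicate 3) and 0 and 1 at 96 h (1 without Ctrl MCM2-2A replicate 1). In POLE4-dTAG cells at T60 it was 0 to 1 (1 without Ctrl replicate 2). Between the lines it was 1 to 2 at T0 and at T24 (2 without Ctrl replicate 3), 0 to 1 at T12, 14 to 29 at T60 (14 without Ctrl replicate 1) and 1 to 8 at 96 h. Along RA it was 5 to 12 in Ctrl MCM2-2A (12 without replicate 3 at T0) and 1 to 3 in dPOLE4 MCM2-2A, and the median in dPOLE4 lay between -0.026 and 0.024, below 0 without replicate 1 or 3 at T0 or replicate 2 at T60. Library depth and shared reads limit the low and near-identical genes.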
